A study of Mus musculus with 25 samples.

Results

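E2f1, Rbl1 and Cdkn1b, 3 genes that govern the passage of a cell from G1 into S phase, were followed through liver regeneration after partial hepatectomy (PHx) in the mouse. They were taken by name from the study's table of clustered transcripts and are read by 4 of the 35981 probes of the array, 1 for E2f1 (IVGNm32161), a pair for Rbl1 (IVGNm27865, called the first probe below, and IVGNm28320, called the second) and 1 for Cdkn1b (IVGNm20128). The study chose that table on the same arrays, so a change of these genes somewhere in the time course was a condition of their being listed. Liver RNA of male Balb/c mice, 8 weeks of age by the labels, was hybridised to 25 single-colour arrays, 1 liver each. The groups were sham surgery and PHx at 4, 12, 36 or 72 hours, of 5 livers each. All 5 sham livers are labelled as 4 hours after surgery, so at 12, 36 and 72 hours a PHx liver differed from its control by the operation and by the hours since surgery, which cannot be told apart. Whole liver was measured, so fewer cells of a type and less RNA per cell cannot be told apart either.

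Most hepatocytes of an adult liver rest outside the cell cycle and return to it when liver mass is lost. In resting cells pocket proteins, chiefly the product of Rbl2, bind E2F transcription factors and hold their target genes silent, while p27Kip1, the product of Cdkn1b, blocks cyclin and CDK2 complexes. Cyclin-dependent kinases that escape this block phosphorylate the pocket proteins, and free E2F factors, with E2F1 as the best known activator, then switch on the genes of DNA replication. The pocket protein p107, the product of Rbl1, is scarce in resting cells and is known to build up as they enter the cycle. Rbl1 and E2f1 are themselves known target genes of E2F factors.

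In the GRCm38.p6 assembly, E2f1 lies on chromosome 2 from 154559400 to 154569892, Rbl1 on chromosome 2 from 157145893 to 157204534 and Cdkn1b on chromosome 6 from 134920401 to 134925525. The letters before the transcript start are shown for Rbl1 and Cdkn1b because the genes moved in opposite directions, and capitals mark an E2F word. The words searched, on both strands, were TTTCCCGC, TTTCGCGC, TTTGCCGC and TTTGGCGC. The RefSeq window of E2f1 belongs to a transcript that starts 466 bases inside the gene and is not shown. It was searched too and held none of these words. The 250 bases before the start of Rbl1 (chr2:157204535-157204784, minus strand) and of Cdkn1b (chr6:134920151-134920400, plus strand), from RefSeq, read 5′ to 3′:
Rbl1: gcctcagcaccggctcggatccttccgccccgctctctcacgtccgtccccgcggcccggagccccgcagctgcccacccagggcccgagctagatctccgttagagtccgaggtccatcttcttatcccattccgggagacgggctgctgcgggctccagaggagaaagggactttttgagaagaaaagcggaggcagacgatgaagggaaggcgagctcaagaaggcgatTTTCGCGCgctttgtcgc
Cdkn1b: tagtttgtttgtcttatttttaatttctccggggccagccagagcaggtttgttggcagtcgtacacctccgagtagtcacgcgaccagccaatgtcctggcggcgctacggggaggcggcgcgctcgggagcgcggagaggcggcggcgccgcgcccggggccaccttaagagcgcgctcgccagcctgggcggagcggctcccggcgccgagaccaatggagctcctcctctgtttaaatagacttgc

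Rbl1 holds 1 E2F word, which begins at position -18, counted back from the start. The window of Cdkn1b, which reaches from 250 bases before the start to 50 bases after it, holds no E2F word. It holds neither of the forkhead words TGTTTAC and TATTTAC, and CCAAT, the word of the factor NF-Y, begins at positions -161 and -35 on the strand shown and, on the other strand, at position 46, counted from 1 at the first transcribed base. An E2F word is present in 2.26% of 32851 RefSeq windows of this length and in 2.85% of the 21263 windows of protein-coding genes. CCAAT is present in 37.4% of all windows and a forkhead word in only 6.54%, so most windows lack a forkhead word. For comparison with the word of Rbl1, stretches of 30 bases from Cdk2 (chr10:128705173-128705202) and Mcm6 (chr1:128359797-128359826), both on the minus strand and with a window that begins at the outer start of the gene, are:
Cdk2: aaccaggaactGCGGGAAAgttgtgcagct
Mcm6: tggcgtatgctTTTGGCGCgaaaagtgcgt

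In Cdk2 the word TTTCCCGC is read from the other strand and begins at position -140, and in Mcm6 the word begins at position -110 and overlaps a further word on the other strand. These matches describe letters only, and binding was not measured.

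The deposited intensities had been scaled between arrays, with array medians between 97.7 and 102.7, and log2 values of arrays of 1 group correlated at 0.9812 to 0.9963 across probes. Each comparison was fitted with limma across 35979 probes and all 25 arrays, with 1 mean per group, and a probe is called higher or lower at a Benjamini-Hochberg adjusted p under 0.05. The median log2 change of all probes lay between -0.0077 and 0.0036 at the 4 times against sham.

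E2f1 stayed low for 12 hours and then rose steeply. Its intensity on the 5 sham arrays was 125.95, 126.25, 98.55, 98.55 and 125, close to the median of all probes. At 4 hours after PHx it was 141.55, 152.9, 145.6, 117.05 and 130.3, of which 117.05 lay within the sham range and the other 4 above every sham array. At 12 hours it was 108.7, 86.05, 73.35, 63.6 and 81.55, below all 4 hour arrays, and 1 of these 5 arrays lay within the sham range. At both later times it was higher on every array. At 36 hours it was 708.4, 1322.65, 1189.95, 877.15 and 707.95, and at 72 hours it was 458.05, 372.5, 468.05, 585.55 and 559.95. All 10 arrays of these later times lay above every sham array, and no 72 hour array reached the lowest 36 hour array.

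Against sham, E2f1 was 8.15-fold higher at 36 hours (log2 change 3.03, SE 0.16, n = 5 per group, limma adjusted p = 6.81e-13), when 13.6% of all probes were called higher and 10.3% had all arrays above sham. At 72 hours it was still 4.23-fold higher (log2 change 2.08, SE 0.16, limma adjusted p = 9.92e-10), when 15.1% were called higher and 11.0% lay fully above. Counted from the highest log2 change down, it stood 66th among all probes at 36 hours and 115th at 72 hours. The 4 hour value did not pass (log2 change 0.26, SE 0.16, limma adjusted p = 0.376). At 12 hours E2f1 was called lower than sham (log2 change -0.49, SE 0.16, limma adjusted p = 0.0253, against 15.1% of all probes called lower), a call that was lost without any 1 of sham replicates 1, 2 and 5 and PHx 12 h replicates 3 and 4, with adjusted p up to 0.0838. The fall from 4 to 12 hours was larger (log2 change -0.75, SE 0.16, limma adjusted p = 9.04e-04, with 13.2% of probes called lower) and kept its call with each array left out. From 12 to 36 hours E2f1 rose by 3.51 on the log2 scale (limma adjusted p = 4.28e-14, with 14.4% of probes called higher). Of its 12 hour intensities, 4 of 5 lay below the array median. With normexp background correction at an offset of 16 E2f1 rose by 4.08, while the main fit subtracted no background. From 36 to 72 hours it fell by 0.94 on the log2 scale (limma adjusted p = 3.22e-04), a comparison in which only 4.54% of probes were called lower. The order of its levels was thus 36 hours, 72 hours, 4 hours, sham and 12 hours. The neighbours 4 hours and sham did not pass, and 72 hours stood above 4 hours by 1.82 on the log2 scale (limma adjusted p = 7.20e-09, with 14.4% of probes called higher). Of 5 leukocyte markers 3 were at hand, and all were called higher at 36 and 72 hours, with a summed intensity of 347.3 to 416.45 in sham livers, 795.9 to 1996.1 at 36 hours and 528.65 to 5735.1 at 72 hours. Most of that rise came from Prtn3, a granule protease of myeloid cells, which was 4.64-fold higher at 36 hours, while Bank1 and Icos were 1.37-fold and 1.57-fold higher. Their part in the rise of E2f1 or Rbl1 was not tested. These markers stand in the table that the study chose on these arrays, so their changes are not independent evidence.

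**Figure D1:**
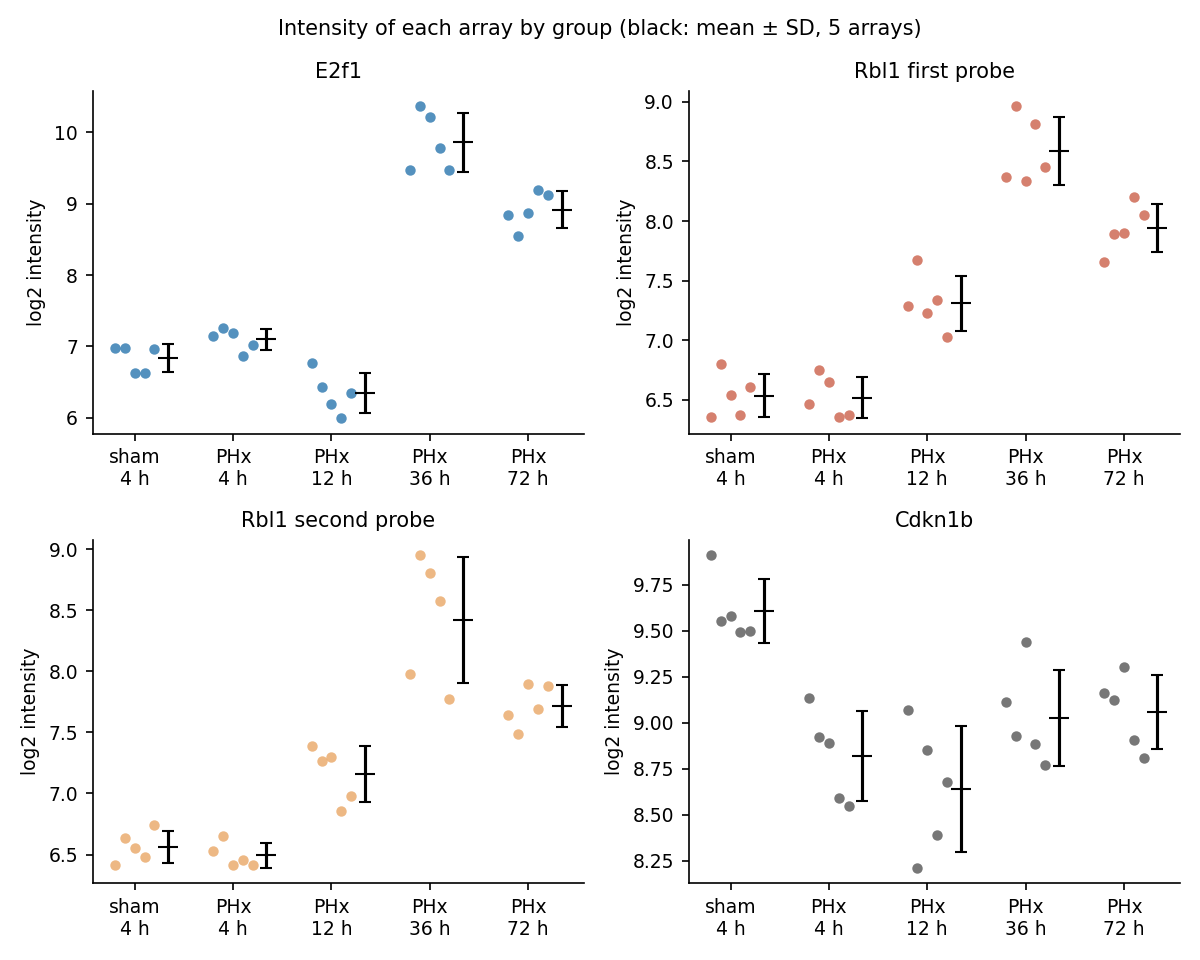
Log2 intensity of each array (coloured points, in the order of replicate numbers) for the 4 probes in sham livers and at the 4 times after PHx, with the mean ± SD of 5 arrays in black; each panel has its own vertical axis. E2f1 drops at 12 hours and peaks at 36 hours, both Rbl1 probes are up from 12 hours on, and Cdkn1b lies below sham at every time.

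Rbl1 rose earlier than E2f1 and by less. On its first probe the intensity was 82.05, 111.3, 93.35, 83.05 and 97.6 in sham livers and 88.35, 107.55, 100.7, 82 and 82.95 at 4 hours, so the groups overlapped. At 12 hours it was 156.1, 203.65, 149.6, 161.5 and 130.4, with all 5 arrays above all sham arrays. At 36 hours it was 331.55, 499.25, 323.15, 448.9 and 350.8, and at 72 hours 201.85, 237.75, 239, 293.75 and 265.8, so the peak again fell at 36 hours without overlap with either neighbouring time. The second probe had 85.15, 99.6, 93.85, 89.2 and 107.25 in sham livers and 92.55, 100.45, 85.15, 87.8 and 85.4 at 4 hours. At 12 hours it had 167.2, 154, 157.55, 115.65 and 125.85, also fully above sham. Its 36 hour values, 252.65, 494.85, 447.45, 382.5 and 219.4, were the most scattered of any group and probe here (SD 0.52 on the log2 scale). Its 72 hour values, 199.45, 179.25, 237.85, 206.9 and 236, overlapped with the lowest 36 hour array.

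At 4 hours neither Rbl1 probe passed (log2 changes -0.02 and -0.07, limma adjusted p = 0.965 and 0.871). At 12 hours the first probe was 1.71-fold higher than sham (log2 change 0.77, SE 0.13, limma adjusted p = 5.13e-05) and the second 1.51-fold higher (log2 change 0.59, SE 0.16, limma adjusted p = 0.00638). At that time 16.3% of all probes were called higher and 10.4% had all arrays above sham. At 36 hours the log2 changes were 2.05 (SE 0.13, limma adjusted p = 1.43e-11) and 1.85 (SE 0.16, limma adjusted p = 3.26e-09), which is 4.14-fold and 3.61-fold. At 72 hours they were 1.40 (limma adjusted p = 1.40e-08) and 1.15 (limma adjusted p = 5.63e-06). Both probes were higher at 12 than at 4 hours, by 0.79 and 0.66 on the log2 scale (limma adjusted p = 3.80e-05 and 0.00264, with 14.0% of probes called higher), and higher again at 36 than at 12 hours, by 1.28 and 1.26. From 36 to 72 hours they fell by 0.65 and 0.70 (limma adjusted p = 0.00157 and 0.00524), and the second probe did not pass when these 2 groups were fitted alone (adjusted p = 0.0647). The order of levels was 36 hours, 72 hours, 12 hours, sham and 4 hours on both probes. Here 72 hours stood above 12 hours (log2 differences 0.63 and 0.56, limma adjusted p = 4.62e-04 and 0.0087, with 15.5% of probes called higher), and sham and 4 hours did not differ beyond their spread.

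Cdkn1b fell within 4 hours and did not return to the sham level by 72 hours. Its intensity on the sham arrays was 961.8, 750, 765.5, 720.25 and 724.45, with replicate 1 well above the rest. It was 561.65, 485.8, 474.25, 384.95 and 374.55 at 4 hours and 536.35, 296.5, 462, 334.85 and 409.05 at 12 hours. It was 553.35, 487.2, 693.2, 473.15 and 436.05 at 36 hours and 572.8, 556.75, 631, 479.25 and 448.05 at 72 hours. All 20 arrays after PHx lay below the lowest sham array, while the 4 times after PHx overlapped with one another.

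Cdkn1b was 1.73-fold lower than sham at 4 hours (log2 change -0.79, SE 0.15, n = 5 per group, limma adjusted p = 7.62e-04), when only 6.35% of all probes were called lower and 4.96% had all arrays below sham. It was 1.96-fold lower at 12 hours (log2 change -0.97, SE 0.15, limma adjusted p = 1.59e-05, with 9.79% of probes fully below). At 36 hours the log2 change was -0.58 (SE 0.15, limma adjusted p = 0.00459), when 12.5% of probes were called lower and 8.40% lay fully below. At 72 hours it was -0.55 (SE 0.15, limma adjusted p = 0.00704), with 13.1% called lower and 8.64% fully below. Among the times after PHx only 72 against 12 hours passed (log2 difference 0.42, limma adjusted p = 0.0335, with 15.5% of probes called higher). Of the 5 arrays at 72 hours, 3 lay above all 12 hour arrays. This comparison was not among those checked under other settings. The log2 differences of 12 against 4 hours (-0.18, limma adjusted p = 0.468), 36 against 12 hours (0.39, limma adjusted p = 0.055) and 72 against 36 hours (0.03, limma adjusted p = 0.945) did not pass. With dim probes left out of the fit, 36 against 12 hours passed (limma adjusted p = 0.04). With the PHx 4 h arrays as the control in place of sham, the log2 difference of Cdkn1b was 0.21 at 36 hours (limma adjusted p = 0.405) and 0.24 at 72 hours (limma adjusted p = 0.275). The order of levels was sham, 72 hours, 36 hours, 4 hours and 12 hours, and only the step from sham to 72 hours passed between neighbours. Tbp, a general transcription factor and the only gene of the housekeeping list at hand, also fell, by 0.68, 0.86, 0.92 and 1.06 on the log2 scale at 4, 12, 36 and 72 hours (limma adjusted p = 1.08e-05, 3.67e-08, 1.53e-08 and 2.38e-09), and its part in the change of Cdkn1b was not tested. The summed intensity of the 5 hepatocyte markers at hand, of 6 listed, lay between 161830 and 192590 in sham livers and between 102450 and 134070 at 4 hours. At each later time it also lay below every sham array, with 153150 as the highest value, at 12 hours. Taken singly, all 5 hepatocyte markers were called lower at 4, 36 and 72 hours (6.35%, 12.5% and 13.1% of all probes). At 12 hours only 2 were called lower and 3 did not pass, against 15.1% of all probes called lower. The part of these cells in the change of Cdkn1b was not tested. Tbp and these markers stand in the table that the study chose on these arrays. A gene that stayed level could not be at hand, so their changes are not independent evidence.

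**Figure D2:**
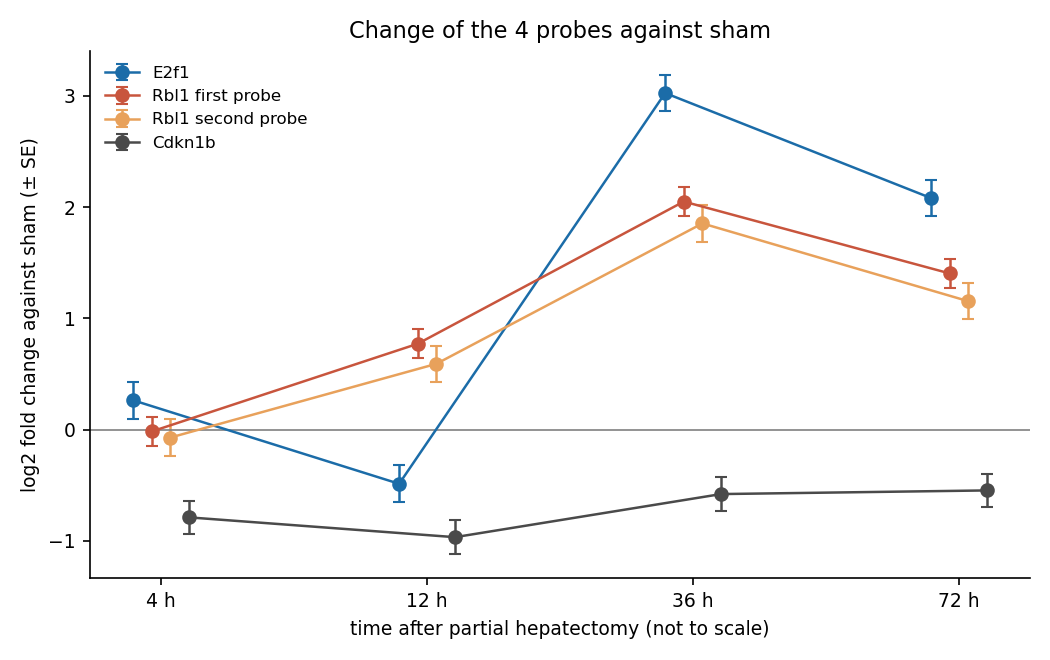
Log2 fold change against sham (points) with its SE (bars) for the 4 probes at the 4 times after PHx, fitted with limma; the time axis is not to scale. E2f1 goes from -0.49 at 12 hours to 3.03 at 36 hours, Rbl1 rises in steps from 12 hours, and Cdkn1b lies between -0.97 and -0.55 throughout.

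Differences between the genes' changes were tested per array, by exact permutation of 5 against 5 arrays (two-sided, 18 tests, Benjamini-Hochberg adjusted, smallest possible p 0.00794). At 12 hours, a time added after the values had been seen, the log2 change of E2f1 minus that of the first Rbl1 probe was -1.26 ± 0.18 (SE, exact adjusted p = 0.0143). Against the second probe the difference was -1.08 ± 0.12 (exact adjusted p = 0.0143). At 36 hours the order had turned, and E2f1 had changed by 0.98 ± 0.19 more than the first probe and by 1.17 ± 0.12 more than the second (exact adjusted p = 0.0143 for each). From 36 to 72 hours the differences between E2f1 and Rbl1 were -0.30 ± 0.19 and -0.25 ± 0.12 and did not pass (exact adjusted p = 0.219 and 0.133). The pair of Rbl1 probes did not differ beyond their spread in any of the 3 comparisons, with differences between 0.05 and 0.20 (exact adjusted p = 0.268 or more), and with SE of 0.13 to 0.22 a small difference was not detectable. The part of the 36 hour log2 change still present at 72 hours was 68.8% for E2f1, 68.5% and 62.3% for the Rbl1 probes and 94.3% for Cdkn1b. The part already present at 12 hours was 37.6% and 31.9% for Rbl1, while E2f1 had moved the other way.

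Cdkn1b differed from each of the other probes at 36 hours. The log2 change of E2f1 exceeded that of Cdkn1b by 3.61 ± 0.20, and those of the Rbl1 probes by 2.63 ± 0.25 and 2.43 ± 0.25 (exact adjusted p = 0.0143 for each). At 12 hours, when E2f1 and Cdkn1b both lay below sham, their difference was 0.48 ± 0.17 (exact adjusted p = 0.0357). It did not pass with 1 array left out (exact adjusted p = 0.0659), except without sham replicate 2 or 5 or PHx 12 h replicate 3. From 36 to 72 hours, when Cdkn1b did not pass, E2f1 minus Cdkn1b changed by -0.98 ± 0.26 (exact adjusted p = 0.0143) and the first Rbl1 probe minus Cdkn1b by -0.68 ± 0.27 (exact adjusted p = 0.0549). The second Rbl1 probe minus Cdkn1b changed by -0.73 ± 0.25 (exact adjusted p = 0.0357), a call kept only without PHx 36 h replicate 1 or 5 or PHx 72 h replicate 5 when 1 array was left out (exact adjusted p up to 0.0714).

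The 36 hour arrays differed from one another in step for some of these probes. Replicate 2 and then replicate 3 were the brightest arrays for E2f1 and for the second Rbl1 probe, followed by replicates 4, 1 and 5. The summed intensity of 34 S phase genes, described below, was 96179, 142550, 135560, 91662 and 84864 on replicates 1 to 5, so replicates 2 and 3 were also highest there. The first Rbl1 probe had replicate 2 highest and replicate 3 lowest.

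Among 1169 other named mRNA genes of the rows at hand, the nearest profiles were found by the root mean square difference of the 4 log2 changes against sham, a measure over 4 times and 5 groups that share the sham arrays. Nearest to E2f1 were Top2a, which encodes the DNA topoisomerase of dividing cells (0.14), 2810433K01Rik (0.15) and Fanci, a gene of DNA crosslink repair (0.18). Nearest to the first Rbl1 probe were Pold1, the catalytic subunit of DNA polymerase delta (0.23), Cdk2 (0.24) and Exosc8, a subunit of the RNA exosome (0.29). Nearest to the second were Gins3, a subunit of the replicative helicase (0.17), 2310022K01Rik (0.18) and Tube1, a tubulin (0.19). The Rbl1 probes lay 0.18 from each other, nearer than any other gene to the first probe, and 0.88 and 0.94 from E2f1. Nearest to Cdkn1b were Gnai2, an inhibitory G protein subunit (0.08), Rpain, which carries replication protein A into the nucleus (0.09), and 1700052N19Rik (0.09).

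Cdk2, Cdk4 and Cdk6, kinases that act on pocket proteins, were called higher from 12 hours, and the cyclin genes Ccne2 and Ccna2 from 36 hours. Of 10 listed G1 cyclins, kinases and activators, 6 were named in the rows at hand, and 4 were called higher at 12 hours, 6 at 36 hours and 6 at 72 hours, against 16.3%, 13.6% and 15.1% of all probes. No D cyclin was among them, and all 6 come from the table that the study chose on these arrays, so the counts are not independent evidence of direction. The list's median log2 change was 0.57, 1.81 and 0.82 at these times. At 12 hours Cdk4, the kinase partner of the D cyclins, had a log2 change of 0.81 (limma adjusted p = 3.97e-07), Cdk6 0.36 (limma adjusted p = 0.0135), Cdk2, the partner of cyclins E and A, 0.77 (limma adjusted p = 2.58e-06) and Cdc25a, the phosphatase that activates CDK2, 0.92 (limma adjusted p = 1.44e-07). At 4 hours only Cdc25a passed, and it was lower (log2 change -0.35, limma adjusted p = 0.022). Ccne2 (cyclin E2) and Ccna2 (cyclin A2) had log2 changes of -0.25 and -0.06 at 12 hours (limma adjusted p = 0.421 and 0.906), like E2f1 not above sham, and 3.71 and 3.88 at 36 hours (limma adjusted p = 1.40e-12 and 4.92e-11). From 36 to 72 hours 5 of the 6 were called lower, against 4.54% of all probes. Ccne2 fell by 2.07, while Ccna2 was at -0.18 (limma adjusted p = 0.799). No other member of the E2F family and no other CDK inhibitor of the lists was named in the rows at hand.

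Of 11 genes listed for the pocket protein repressor complex, apart from Rbl1, 2 were at hand. Lin9, a subunit of the MuvB core, had log2 changes of -0.20 at 12 hours (limma adjusted p = 0.31) and 1.02 at 36 hours (limma adjusted p = 4.52e-06). Foxm1, which joins this core in G2, had -0.09 (limma adjusted p = 0.746) and 1.37 (limma adjusted p = 7.78e-07). Both were also called higher at 72 hours (0.40 and 1.24).

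Of 5 genes listed for the turnover of p27Kip1 protein, only Skp2 was at hand, the subunit of the ubiquitin ligase that marks p27Kip1 for degradation. Its log2 change was -0.31 at 4 hours (limma adjusted p = 0.0983), when Cdkn1b mRNA was already lower. Skp2 was called higher at 12 hours (0.51, limma adjusted p = 0.00164), at 36 hours (1.92, limma adjusted p = 7.12e-12) and at 72 hours (0.80, limma adjusted p = 1.09e-05). Its intensity was between 319.45 and 407.75 in sham livers and between 1031.2 and 1728.9 at 36 hours, without overlap. Protein was not measured.

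FoxO factors are known to drive transcription of Cdkn1b and are held back by PI3K and AKT signalling. Of 9 genes listed for this axis 4 were at hand, and all 4 were called lower at 4 and at 12 hours (6.35% and 15.1% of all probes), with median log2 changes of -0.44 and -0.46. The 4 join kinase genes of the signalling side with FoxO target genes, so this count and median give no direction for FoxO activity, which was not tested. Fbxo32, a ubiquitin ligase gene and known FoxO target, had -0.26, -0.58, -0.83 and -0.50 at the 4 times and was called lower at each. Sesn1, a stress gene that FoxO and p53 induce, was lower at 4 and 12 hours (-0.59 and -0.33) and called higher at 72 hours (0.59, limma adjusted p = 4.92e-04). The kinase genes Pdpk1 and Sgk3 had -0.39 and -0.49 at 4 hours, and Pdpk1 but not Sgk3 was called lower at 36 and 72 hours. All 4 stand in the table that the study chose on these same arrays, so the count is not independent evidence of their direction.

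**Figure D3:**
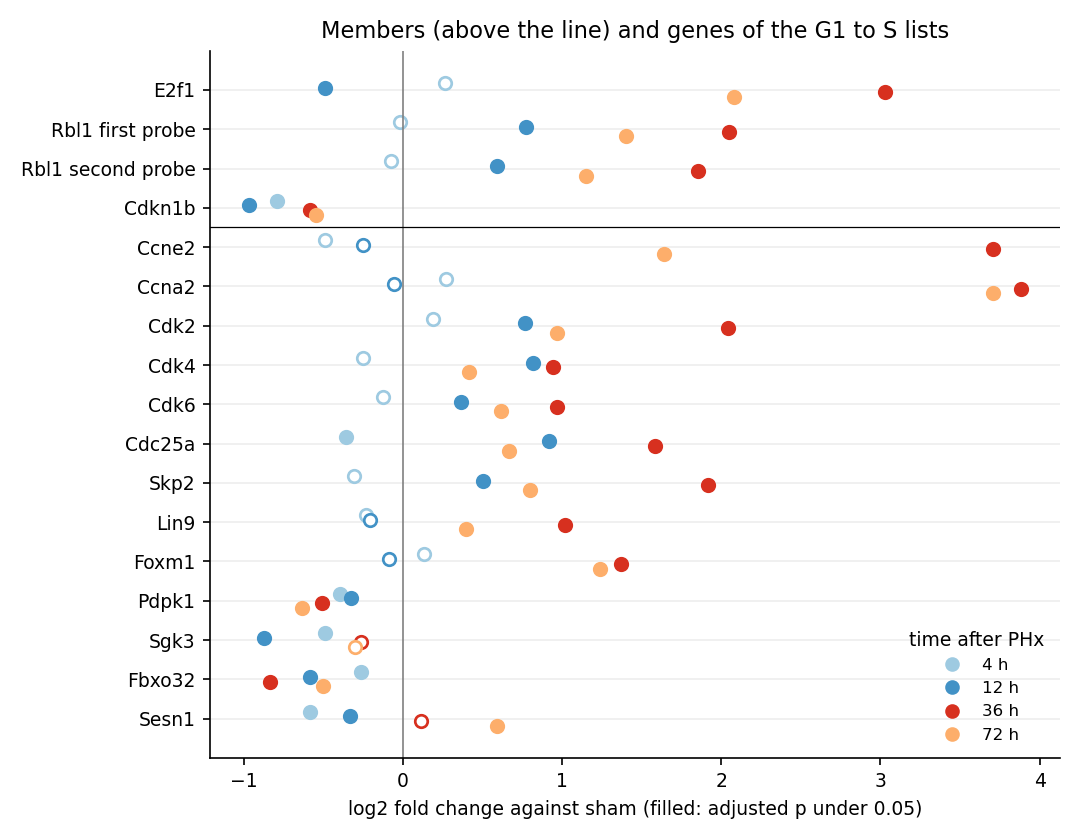
Log2 fold change against sham at 4, 12, 36 and 72 hours (coloured points, filled where the limma adjusted p is under 0.05) for the 4 member probes, above the line, and the genes at hand of the G1 to S lists. Cdk4 has nearly the same value at 12 and 36 hours (0.81 and 0.94), whereas E2f1, Ccne2 and Ccna2 are called higher only from 36 hours, and Fbxo32, Pdpk1 and Sgk3 lie below sham at all 4 times and Sesn1 at 4 and 12 hours.

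Replication and S phase genes that E2F factors are known to drive were higher at 36 hours, when E2f1 was highest. Of 38 listed genes 34 were at hand. At 4 hours 1 was called higher and 2 lower (median log2 change 0.12, against 6.12% and 6.35% of all probes). At 12 hours, when E2f1 itself was below sham, 12 were called higher and 1 lower (median 0.12, against 16.3% and 15.1% of all probes). At 36 hours all 34 were higher, by 1.04 to 4.64 on the log2 scale with a median of 2.45, when 13.6% of all probes were called higher. The change of E2f1 lay inside that range, with 12 of the 34 genes above it. At 72 hours 31 were higher (median 1.15, against 15.1% of all probes), and from 36 to 72 hours 32 of the 34 fell (median -1.35, against 4.54%). Over this step 29 genes of the list had a lower value than E2f1 (-0.94). Among these 34 genes the smallest p at 36 hours belonged to Mcm2, Mcm3 and Mcm5, subunits of the replicative helicase, at 14.5-fold, 10.2-fold and 23.8-fold, and to Rrm1, the large subunit of ribonucleotide reductase, at 8.73-fold (limma adjusted p = 1.36e-16, 2.78e-16, 7.84e-16 and 9.26e-16). The gene that was lower at 12 hours was Gins1, a helicase subunit (-0.99), named after its value had been seen. An E2F word stood in the RefSeq window of 14 of the 32 genes of this list that have one and of 2 of 4 G1 cyclins, kinases and activators. Some of these windows, like that of E2f1, belong to a start inside the gene, 728 bases for Hells and 442 for Cdc6. The study chose its table on these arrays, so the counts are not independent evidence of direction.

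**Figure D4:**
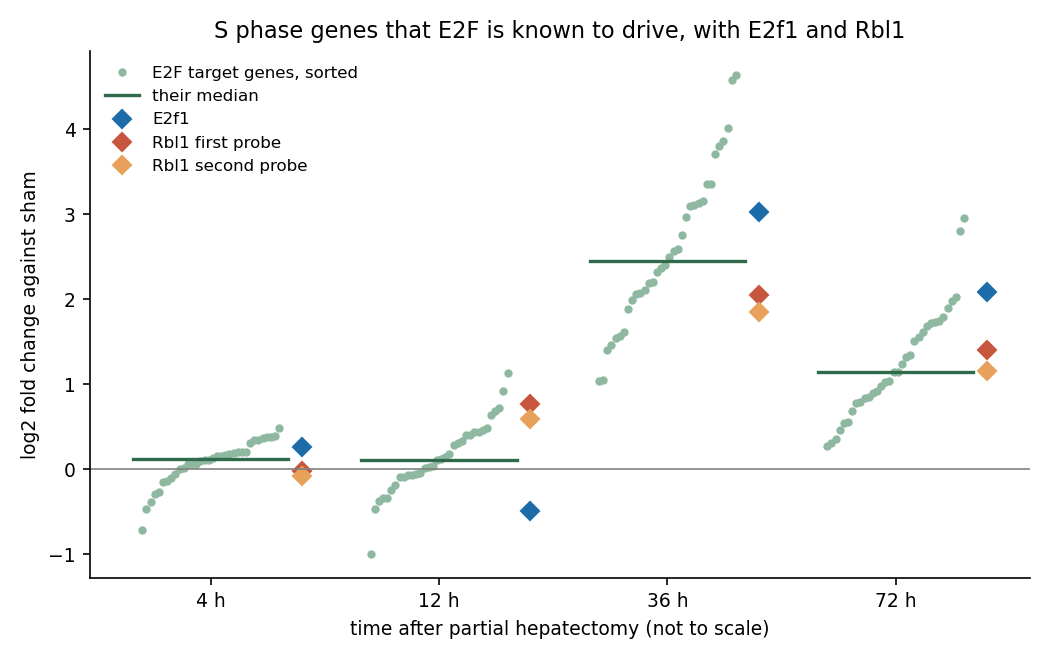
Log2 fold change against sham of the 34 S phase genes known as E2F targets (green points, sorted within each time, with their median as a line) and of E2f1 and both Rbl1 probes (diamonds) at the 4 times after PHx. At 12 hours Rbl1 (0.77 and 0.59) lies above the list's median of 0.12 and E2f1 (-0.49) below it, and at 36 hours the list spans 1.04 to 4.64.

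Markers of other liver cell types were listed too, and none was at 0, since the lowest intensity of any probe was 37.75. The sum of 3 stellate cell markers was 2021.8 to 2171 in sham livers, 1742.3 to 2281.9 at 4 hours and 841.95 to 1172.2 at 12 hours. Later the stellate sum stayed below every sham array, with a highest value of 1320.9 for 36 hours and 1713.3 for 72 hours. The sum of 3 endothelial markers was 1581.9 to 1835.3 in sham livers and 911.75 to 1134.7 at 12 hours. This endothelial sum was already below every sham array at 4 hours, where its highest value was 1385.1. It was still below them later (highest value 1444.4 for 36 hours, 1473.7 for 72 hours). Taken singly, Clec14a and Clec1b were called lower at 4 hours, and Calcrl did not pass. At 36 and 72 hours the endothelial markers were mixed, with Calcrl called higher, Clec1b called lower and Clec14a not passing. The only macrophage marker at hand, Spic, was called lower at all 4 times, against 6.35%, 15.1%, 12.5% and 13.1% of all probes. The only cholangiocyte marker, Anxa4, was called lower at 12 and 36 hours. All these markers stand in the table that the study chose on these arrays, so their changes are not independent evidence.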

How the data were processed

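The authors deposited 1 table of linear intensity values, 1 column for each of 25 arrays, from the NCode Mouse Non-coding RNA Microarray. These values were already scaled between arrays and reach down to 37.75, and no background was subtracted here. How this scaling was done, and whether background had been subtracted before, is not stated in the sources used here. Although vsn is named in the methods, the values are not on its scale, so log2 was taken without further normalization. Detection flags were not used here. Each probe was fitted with 1 mean per group (lmFit and eBayes, limma 3.58.1, R 4.3.3) across all genes on the array, without a filter on dim probes and without 2 blank probes, and p-values were adjusted over 35979 probes. Differences between the genes' changes were tested with scipy 1.17.1, and figures were drawn with matplotlib 3.10.9.

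Gene names come from the 1998 rows at hand (1943 probes) of the study's cluster table, which is held only in part, so genes outside those rows were not analysed here. Some listed genes are not reported here and were left out of the lists and their counts. Of several probes of a listed gene, the one with the highest mean was used. Named were all member probes, all genes at hand of the G1 to S lists, up to 4 genes of other lists by the smallest adjusted p at 36 hours, and the 3 genes nearest to each member in profile. The members and lists were chosen with earlier results of these data known. Coordinates and promoter windows come from RefSeq (GRCm38.p6); the probes' own positions in the transcripts were not used here. The fit was first tested on data simulated with known answers. The 5 arrays per group limit the precision. No 2 arrays were duplicates. Alternatives for normalization, background, filter, variance model, groups, replicate numbers and single arrays were run.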

Additional observations from a re-analysis of the deposited data

Results flagged for a closer look

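In the sham group, Cdkn1b of replicate 1 (961.8) lay apart from the other 4 arrays (720.25 to 765.5), with a gap of 0.789 of the group's log2 range. This was 1 of 20 groups tested this way, and chance alone marks about 1 in 20. Without that array Cdkn1b was still called lower at every time, with log2 changes of -0.71, -0.89, -0.50 and -0.47 at 4, 12, 36 and 72 hours (limma adjusted p = 0.00347, 9.35e-05, 0.0183 and 0.026).

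The change against sham differed between successive times for E2f1 and both Rbl1 probes, each by the limma test of one time against the next. For E2f1 the log2 differences were -0.75 from 4 to 12 hours, 3.51 from 12 to 36 hours and -0.94 from 36 to 72 hours. For the first Rbl1 probe they were 0.79, 1.28 and -0.65, and for the second 0.66, 1.26 and -0.70. E2f1 fell over the step from 4 to 12 hours in which Rbl1 rose.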

How the results depend on the processing

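Of 292 values of single probes under settings other than leaving out an array, 283 kept their call. These also kept their direction, except where neither value passed. The first Rbl1 probe at 4 hours was at -0.0173, and at 0.0016 with array median centring. E2f1 at 12 hours lost its call with a generalised log (-0.40, adjusted p = 0.0559) and with the methods' t-test (-0.49, adjusted p = 0.0551), and ranged from -0.59 to -0.40 with single arrays left out. With PHx 4 h arrays as the control, a choice made after seeing the data, Cdkn1b was at -0.18 at 12 hours, 0.21 at 36 hours and 0.24 at 72 hours. The second Rbl1 probe from 36 to 72 hours (-0.70) lost its call with only those 2 groups fitted and with the methods' t-test (adjusted p = 0.15). Cdkn1b from 12 to 36 hours passed with dim probes left out (0.39, adjusted p = 0.04) and with a replicate block (0.39, adjusted p = 0.00655), and ranged from 0.28 to 0.49 with single arrays left out, passing without sham replicate 1, PHx 4 h replicate 1, PHx 12 h replicate 1 or 3 or PHx 36 h replicate 5. Same-numbered arrays correlated at -0.35 to 0.46 (median 0.0033), with 8 of 50 pairs over 0.1 and 6 of 25 arrays closest to their own number, so the numbers were not taken as pairs, and the block changed no other call. Counts of called probes stayed within 1.5 times of the reported ones under every setting run. Normexp with an offset of 16 gave the highest rise of E2f1 at 36 hours (3.36).

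Among differences between probes with 1 array left out, E2f1 minus Cdkn1b at 12 hours ranged from 0.35 to 0.57. From 36 to 72 hours the second Rbl1 probe minus Cdkn1b ranged from -0.86 to -0.58 and the first from -0.85 to -0.56, passing without PHx 36 h replicate 3 or PHx 72 h replicate 4. The first minus the second Rbl1 probe at 36 hours ranged from 0.070 to 0.36 and passed without PHx 36 h replicate 3 (exact adjusted p = 0.044). With 4 against 5 arrays the smallest p that an exact test can reach is larger. Intensities of E2f1 and Rbl1 lay near the array median in sham livers, and those of E2f1 mostly below it at 12 hours. The size of their folds therefore depends on how background is treated. At 36 hours the first Rbl1 probe was at 2.05 in the main fit and at 2.43 with normexp at an offset of 16.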
